A study of Rattus norvegicus with 4 samples.

Results

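The genes described here are a nucleolar, polyamine and nucleotide group that is commonly listed among the genes activated by Myc: Ncl, Npm1, Odc1, Nme1, Nme2 and Amd1. They were followed through every probe set of the RG-U34A rat array whose only gene symbol in the platform annotation is 1 of these 6. This gave 5 of the 4736 genes with a name of their own on the array, measured by 7 of the 8740 probe sets that are not manufacturer controls. Ncl and Odc1 have 2 probe sets each, and Nme1, Nme2 and Amd1 have 1 each. Both probe sets that list Npm1, which encodes the nucleolar chaperone nucleophosmin, also list a pseudogene, so that Npm1 has no probe set under this choice and no value is given for it. Of the 7 probe sets, 5 carry the suffix _s_at, which marks sets whose probes can match more than 1 transcript.

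Rat1 cells are immortalized rat fibroblasts, which were stably infected with a retrovirus for Omomer or with an empty control virus. Omomer is Omomyc, a mutant Myc dimerization domain, fused to the part of the estrogen receptor that 4-OHT switches on. The 4 conditions, with 1 array each, were Rat1-Omomer and Rat1-control cells at 90 min after 0.1% serum was replaced by 10% serum, and Rat1-Omomer and Rat1-control cells at 0 min, all after 48 h of starvation and all with 4-OHT. The sample labels place 4-OHT over the whole starvation and the methods only over its last hours, and samples were assigned by title because 1 field contradicts the title in Rat1-Omomer cells at 0 min and Rat1-control cells at 90 min. Without replicates, the spread between cultures is unknown and no test was made. Whether an infected line is 1 clone is not given in the sources used here.

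The measure is the MAS 4 average difference of the authors, an intensity on a linear scale that can lie below 0. The trimmed means of the 4 arrays lay between 2503 and 2505, and 24.8% to 27.7% of an array's values were negative. The negative values gave a noise SD of 524, and the floor was set at 2 times this SD, 1048. A fold is a ratio of intensities in which the floor takes the place of any lower value. A fold against a value under the floor is a bound, and none is given when both values lie under it. The Rat1-Omomer 90 min array had the widest noise, which alone would give a floor of 1228, while the other 3 would give 1090 (Rat1-control, 90 min), 1024 (Rat1-Omomer, 0 min) and 895 (Rat1-control, 0 min). Fibroblast genes (Vim, Col1a1, Col3a1, Fn1, Sparc, Thy1, S100a4) were above the floor on all 4 arrays, between 17983 and 102951. The epithelial genes Epcam and Krt18 and the endothelial gene Pecam1 were under it on all 4, and the leukocyte gene Ptprc lay between 1040 and 1097.

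Myc proteins activate transcription as dimers with Max that bind E-boxes, short DNA motifs of which CACGTG is the best known. Among the genes they activate are those that enlarge the capacity for growth: nucleolar proteins that build ribosomes, enzymes that make polyamines, and enzymes that make nucleotides. Omomyc interferes with the dimerization of Myc and Max. Odc1 encodes ornithine decarboxylase, which makes putrescine and catalyses the first committed step of polyamine synthesis, and Amd1 encodes S-adenosylmethionine decarboxylase, which provides the aminopropyl groups for spermidine and spermine. Ncl encodes nucleolin, an abundant nucleolar protein that binds RNA and takes part in ribosome production. Nme1 and Nme2 encode nucleoside diphosphate kinases, which turn nucleoside diphosphates into triphosphates.

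The promoters of Ncl and Odc1 are shown because the results turn on these genes, whose patterns over the 4 arrays differed. The 250 bases before a single RefSeq start site of each gene (build GRCr8) were searched on both strands. The motifs were the E-box CACGTG and the E-box variants CACGCG and CATGCG, and capitals mark a match. The Ncl window is chr9:94456084-94456333 on the minus strand and the Odc1 window chr6:46058415-46058664 on the plus strand, both written 5′ to 3′.
Ncl: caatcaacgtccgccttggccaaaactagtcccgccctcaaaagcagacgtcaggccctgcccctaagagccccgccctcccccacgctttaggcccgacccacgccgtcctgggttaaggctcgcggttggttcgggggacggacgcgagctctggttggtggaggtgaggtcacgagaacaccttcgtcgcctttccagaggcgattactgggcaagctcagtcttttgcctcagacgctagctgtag
Odc1: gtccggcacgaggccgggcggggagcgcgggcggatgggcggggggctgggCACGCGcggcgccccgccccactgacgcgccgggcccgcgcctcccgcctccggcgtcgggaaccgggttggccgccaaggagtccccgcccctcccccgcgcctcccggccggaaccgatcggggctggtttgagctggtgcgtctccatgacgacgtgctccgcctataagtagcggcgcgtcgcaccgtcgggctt

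The Odc1 window holds 1 CACGCG, from -199 to -194 relative to the start site, and the Ncl window none of the 3 motifs. The window of Npm1, which has no value here, holds CATGCG on both strands, from -206 to -201 and from -204 to -199. None of the 3 is in the windows of Amd1, Nme1 or Nme2. The windows of Ncl and Nme2 lie directly before the annotated gene. That of Odc1 overlaps its gene, annotated from 46058439 to 46065148, and that of Npm1 also overlaps its gene. Those of Amd1 and Nme1 lie inside the annotated gene, and other start sites were not searched. Of 33469 such windows of the rat genome, 5.59% hold CACGTG, 7.14% CACGCG and 5.38% CATGCG. The GC content was 78.0% for Odc1, 62.0% for Ncl, 64.0% for Amd1, 58.4% for Nme1 and 64.4% for Nme2, with a median of 51.2% over all windows. A match describes the letters only, and introns and more distant sequence were not searched. The study cites conserved E-boxes in the first intron of the nucleolin gene, through which c-Myc activates it. These lie outside the Ncl window, so the lack of a match there does not mean that Ncl has no E-box.

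Ncl was lower in Rat1-Omomer than in Rat1-control cells after serum, and not before it. Its brighter probe set, M55015cds_s_at, had 11385 in Rat1-Omomer and 20763 in Rat1-control cells with serum for 90 min, and 15427 in starved Rat1-Omomer and 13671 in starved Rat1-control cells. The highest of the 4 values was therefore that of Rat1-control cells with serum and the lowest that of Rat1-Omomer cells with serum. At 90 min the intensity in Rat1-Omomer cells was 1.82-fold lower, a log2 fold of -0.87 ± 0.08, where the error carries only the background noise of the arrays. At 0 min it was 1.13-fold higher in Rat1-Omomer cells (log2 0.17 ± 0.07). The serum folds of this probe set differed in sign between the cell lines: over their own 0 min value, Rat1-Omomer cells were 1.36-fold lower at 90 min (-0.44 ± 0.08) and Rat1-control cells 1.52-fold higher (0.60 ± 0.07). In Rat1-Omomer cells 30.7% of the probe sets had a serum fold as low or lower. In Rat1-control cells 11.3% had one as high or higher.

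The second Ncl probe set, M55017exon_s_at, was dimmer, with 836 in Rat1-Omomer and 2120 in Rat1-control cells with serum for 90 min, and 2371 in starved Rat1-Omomer and 1978 in starved Rat1-control cells. The last 3 of these values lie within 1 noise SD of one another, and the first is under the floor. Rat1-Omomer cells with serum lay under Rat1-control cells with serum by 2.02-fold or more and under their own starved value by 2.26-fold or more, whereas Rat1-control cells at 90 min were 1.07-fold higher than at 0 min (log2 0.10 ± 0.52). With that array's own floor of 1228, both bounds would be smaller. Both Ncl probe sets thus had their lowest value on the same array. A yardstick for a single fold is the disagreement between both probe sets of a gene, for genes with 2 of them above the floor. Its SD in log2 units was 0.71 over 331 genes for Rat1-Omomer over Rat1-control cells at 90 min, 0.68 over 343 genes for Rat1-Omomer cells at 90 over 0 min, 0.32 over 381 genes for Rat1-control cells at 90 over 0 min, and 0.29 over 426 genes for Rat1-Omomer over Rat1-control cells at 0 min. The 90 min difference of Ncl between the cell lines exceeds this SD only slightly, its serum fold in Rat1-control cells exceeds it by more, and its serum fold in Rat1-Omomer cells (-0.44) and its 0 min difference are smaller than it.

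**Figure D1:**
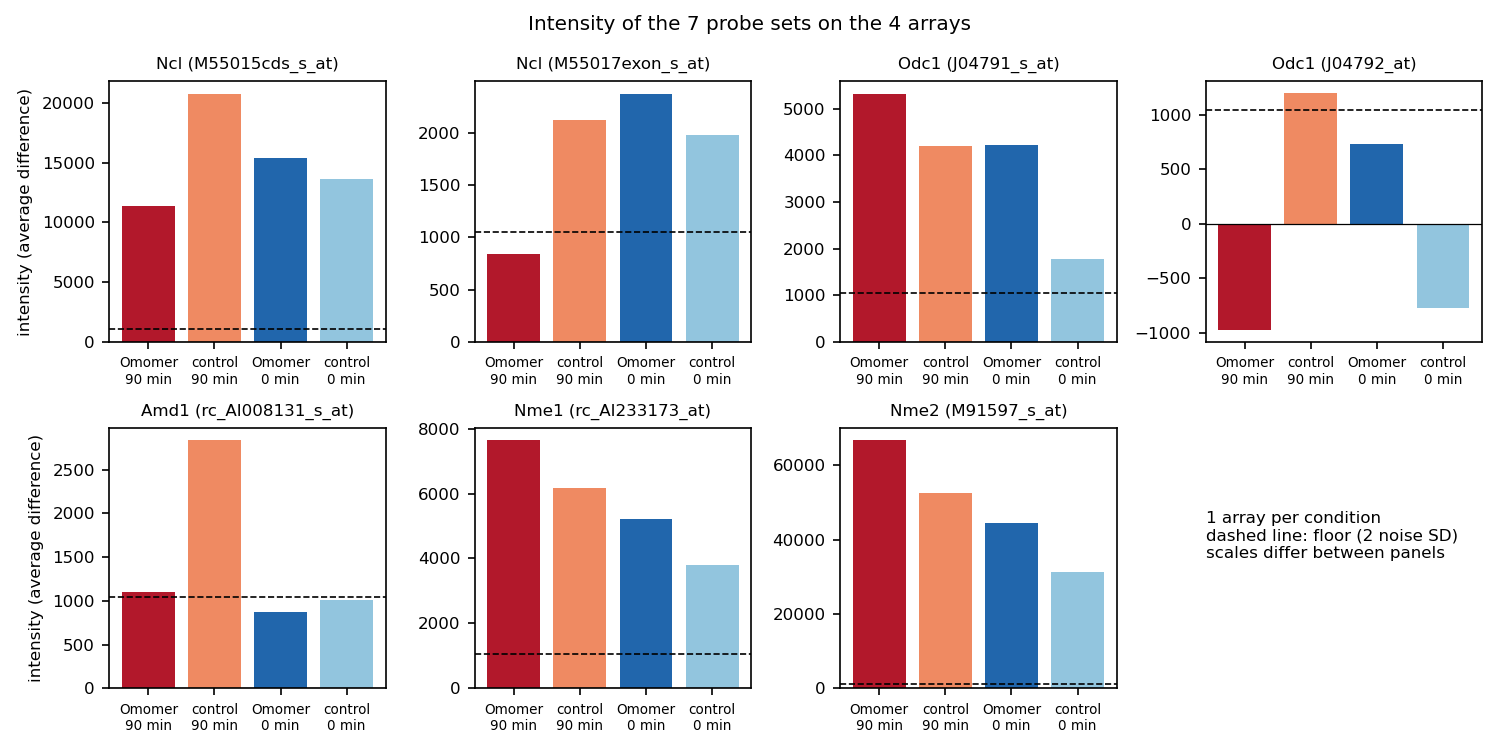
Intensity (average difference, linear scale, 1 array per condition) of the 7 probe sets in Rat1-Omomer and Rat1-control cells at 90 min and at 0 min. The dashed line is the floor of 1048; Ncl is lowest in Rat1-Omomer cells at 90 min on both of its probe sets, with 11385 and 836.

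Odc1 stood out already before serum. Its probe set J04791_s_at had 5321 in Rat1-Omomer and 4211 in Rat1-control cells with serum for 90 min, and 4229 in starved Rat1-Omomer and 1775 in starved Rat1-control cells. The starved Rat1-control cells were low and the other 3 arrays were high, and the value of starved Rat1-Omomer cells equalled that of Rat1-control cells with serum within the noise. At 0 min the intensity was 2.38-fold higher in Rat1-Omomer cells (log2 1.25 ± 0.46), and 0.880% of the 3977 probe sets with a fold in this comparison were as high or higher. Serum gave a 1.26-fold higher value in Rat1-Omomer cells (0.33 ± 0.23) and a 2.37-fold higher value in Rat1-control cells (1.25 ± 0.46). At 90 min the difference between the cell lines was 1.26-fold, higher in Rat1-Omomer cells (0.34 ± 0.23), near the median log2 fold of 0.32 of all probe sets with no value under the floor here.

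Against starved Rat1-control cells, Rat1-Omomer cells at 90 min were 2.998-fold higher in Odc1, just short of 3-fold, the threshold of the study's methods. With median scaling or quantile normalization of the arrays it passed. All the Odc1 folds over Rat1-control cells at 0 min rest on 1 low value, 1775, between 3 and 4 noise SDs above 0. The other probe set, J04792_at, could not be used as a check: it had -974 in Rat1-Omomer and 1197 in Rat1-control cells with serum for 90 min, and 728 in starved Rat1-Omomer and -768 in starved Rat1-control cells, so that 1 of 4 values was above the floor. At 90 min Rat1-Omomer cells were lower by 1.14-fold or more, the opposite direction to the brighter probe set, and its 0 min values have no fold.

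Amd1, the other polyamine enzyme of the group, was well above the floor on 1 array. Its probe set rc_AI008131_s_at had 1105 in Rat1-Omomer and 2834 in Rat1-control cells with serum for 90 min, and 875 in starved Rat1-Omomer and 1006 in starved Rat1-control cells. Rat1-control cells with serum were high, and the other 3 values lie within 1 noise SD of one another. Rat1-control cells at 90 min were at least 2.70-fold higher than at 0 min, and 2.56% of the probe sets had a fold as high or higher. Rat1-Omomer cells at 90 min were 2.57-fold lower than Rat1-control cells at 90 min (log2 -1.36 ± 0.73), and 10.8% of the probe sets had a fold as low or lower. The value 1105 is under its own array's floor of 1228, and with the floor at 4 noise SDs the log2 fold was -0.43, a bound.

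Nme1 and Nme2 had the same order on the 4 arrays, with the highest value in Rat1-Omomer cells with serum. Nme2 (M91597_s_at) had 66676 in Rat1-Omomer and 52524 in Rat1-control cells with serum for 90 min, and 44502 in starved Rat1-Omomer and 31180 in starved Rat1-control cells. Nme1 (rc_AI233173_at) had 7638 in Rat1-Omomer and 6172 in Rat1-control cells with serum for 90 min, and 5202 in starved Rat1-Omomer and 3788 in starved Rat1-control cells. In both genes each cell line was higher with serum than without, and Rat1-Omomer cells were higher than Rat1-control cells at either time.

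With serum, Nme2 was 1.50-fold higher in Rat1-Omomer cells (log2 0.58 ± 0.02) and 1.69-fold higher in Rat1-control cells (0.75 ± 0.03), each over its own 0 min value. Nme1 was 1.47-fold higher in Rat1-Omomer cells (0.55 ± 0.18) and 1.63-fold higher in Rat1-control cells (0.70 ± 0.23). At 0 min Nme2 was 1.43-fold and Nme1 1.37-fold higher in Rat1-Omomer than in Rat1-control cells. At 90 min Nme2 was 1.27-fold and Nme1 1.24-fold higher in Rat1-Omomer cells, but with quantile normalization the log2 fold of Nme2 was -0.03 between the cell lines and -0.10 in Rat1-Omomer cells over their own 0 min. Brightness moved with these folds: 315 probe sets with a mean within 2-fold of that of Nme2 had a median log2 fold of 0.38 for Rat1-Omomer over Rat1-control cells at 90 min and 0.59 for Rat1-Omomer cells at 90 over 0 min, close to the 0.34 and 0.58 of Nme2. Their medians were 0.23 for Rat1-control cells at 90 over 0 min and -0.04 between the cell lines at 0 min, below the 0.75 and 0.51 of Nme2. The part of brightness in the folds was not tested further.

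On the deposited scale the folds of both kinases ran side by side in all 5 comparisons. Their log2 differences, Nme1 minus Nme2, lay between -0.08 and -0.03. Ranked by the root mean square difference of the 3 log2 folds over starved Rat1-control cells, Nme2 was the second nearest to Nme1 of 1446 bright probe sets, at 0.065. The nearest was Tomm20, a subunit of the mitochondrial import receptor, at 0.056, named after its values were seen. With quantile normalization Nme1 and Nme2 parted in the comparisons that use the Rat1-Omomer 90 min array. For Rat1-Omomer cells at 90 over 0 min the log2 fold was then 0.65 for Nme1 and -0.10 for Nme2. Between the cell lines at 90 min it was 0.33 for Nme1 and -0.03 for Nme2. Both genes lie on chromosome 10 in GRCr8, on the same strand, with 3520 bases between them (Nme2 from 79394999 to 79400418, Nme1 from 79403939 to 79426620). Their sequences are closely related, and whether each probe set detects only its own transcript was not tested.

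**Figure D2:**
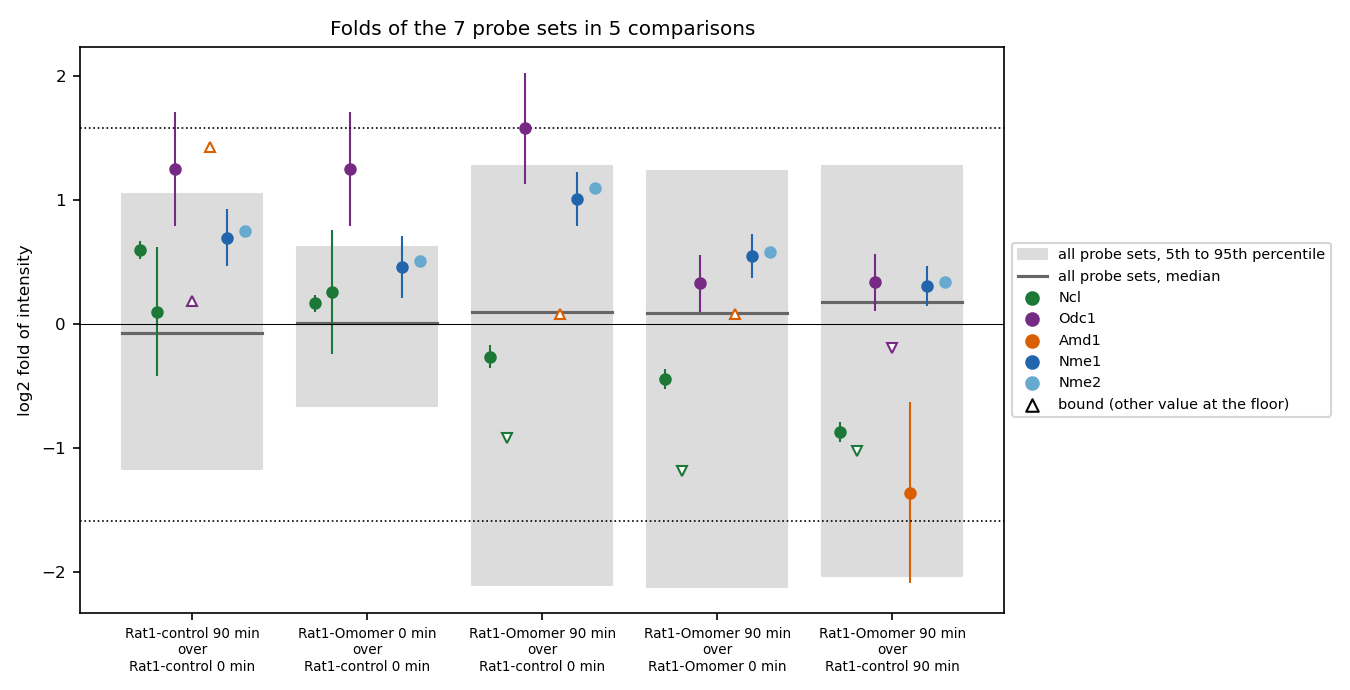
Log2 folds of the 7 probe sets in 5 comparisons. Circles are folds with both values above the floor, error bars carry the background noise only, open triangles are bounds, grey bands span the 5th to the 95th percentile of all probe sets and dotted lines mark 3-fold; Odc1 reaches 1.25 between starved Rat1-Omomer and Rat1-control cells, where the band ends at 0.62.

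No probe set of the group reached 3-fold in either direction in any of the 5 comparisons. In Rat1-control cells at 90 min over 0 min, all 7 were higher (5 measured folds and 2 bounds), with a median log2 fold of 0.70 against -0.07 over all 3985 probe sets with a fold, of which 1.93% were 3-fold higher or more and 1.81% 3-fold lower or more. Not all 7 show a rise, since the dim Ncl probe set (0.10 ± 0.52) lies within its noise error. The dim Odc1 probe set has a bound of only 1.14-fold. In Rat1-Omomer cells at 90 min over their own 0 min, 4 were higher and 2 lower, with a median of 0.20 against 0.09, where 2.90% of all were 3-fold higher and 9.65% lower. Between Rat1-Omomer and Rat1-control cells at 0 min all 5 with a fold were higher, with a median of 0.46 against 0.01, and 0.251% of all were 3-fold higher and 0.503% lower. The dim Ncl probe set (0.26 ± 0.50) is within its noise error here too. The share of all probe sets that were higher was not counted in any comparison. At 90 min 3 were higher and 4 lower in Rat1-Omomer cells, with a median of -0.19 against 0.18, and 2.22% of all were 3-fold higher and 8.57% lower. The sign of this median is not settled: -0.19 is the bound of the dim Odc1 probe set, and by the brightest probe set of each of the 5 genes, 3 of them higher, the median was 0.31. For Rat1-Omomer cells at 90 min over Rat1-control cells at 0 min, 4 were higher and 2 lower, with a median of 0.54 against 0.10, and 2.80% of all were 3-fold higher and 9.95% lower. With 1 array per condition, and several comparisons that share an array, these counts describe the arrays only.

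The serum responses of both cell lines share no array and can be set side by side. The log2 fold of Rat1-Omomer cells minus that of Rat1-control cells was -1.04 for the brighter Ncl probe set and -0.91 for Odc1, and -0.17 for Nme2 and -0.15 for Nme1. The median was 0.27 over the 2600 probe sets with 4 values above the floor, and 12.8% of them were at or below Ncl and 15.0% at or below Odc1. The SD between both probe sets of a gene was 0.73 for this difference. The values behind it were unlike in these genes, since in Rat1-Omomer cells Ncl was low at 90 min and Odc1 was high already at 0 min. The difference was not tested, since there are no replicates.

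**Figure D3:**
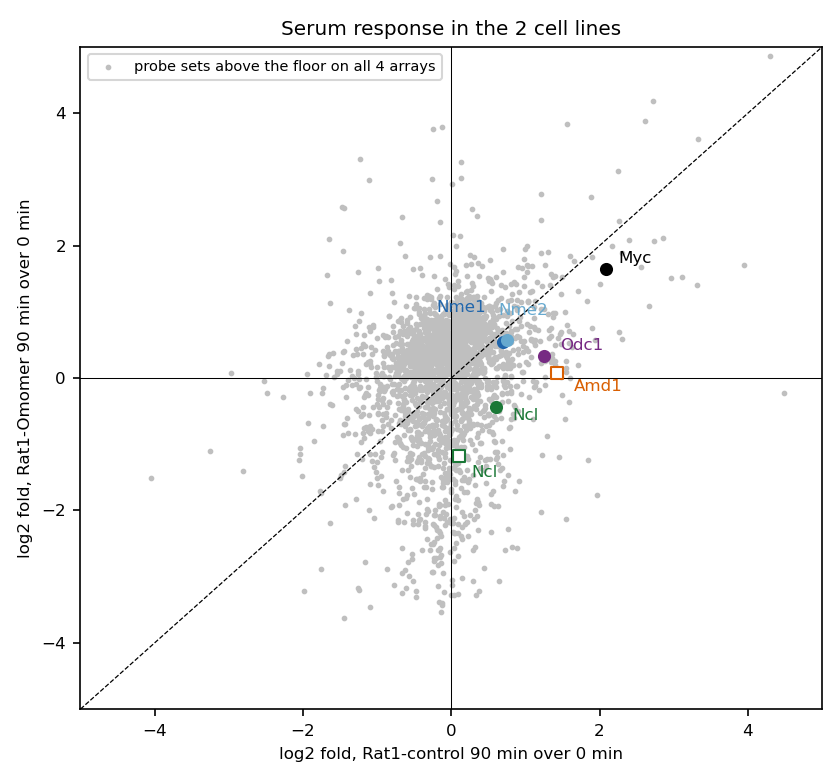
Log2 fold at 90 over 0 min in Rat1-Omomer cells (vertical) against that in Rat1-control cells (horizontal); grey points are the 2600 probe sets with 4 values above the floor, open squares have at least 1 value under the floor and the dashed line marks equal folds. Nme1, Nme2 and Myc lie near the line, Odc1 and Amd1 below it, and both Ncl probe sets in the lower right, where the response is below 0 in Rat1-Omomer cells only.

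Myc itself, by its brighter probe set Y00396mRNA_g_at, had 7233 in Rat1-Omomer and 4980 in Rat1-control cells with serum for 90 min, and 2307 in starved Rat1-Omomer and 1172 in starved Rat1-control cells. The order of the arrays was that of Nme1 and Nme2. Serum gave 3.14-fold higher Myc in Rat1-Omomer and 4.25-fold higher Myc in Rat1-control cells. Ncl, by contrast, was lowest on the array where Myc was highest. The other Myc probe set had 159 in Rat1-Omomer and 1171 in Rat1-control cells with serum for 90 min, and 534 in starved Rat1-Omomer and 222 in starved Rat1-control cells, 3 of the 4 under the floor. Whether the brighter probe set also detects the Omomer transcript was not tested.

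For Ncl and Odc1, the probe sets with the most similar folds over starved Rat1-control cells were sought among 1446 with 1 symbol, with all 4 values above the floor and their mean 3 or more times as high. The measure was the root mean square difference of the 3 log2 folds, which all share 1 array. Nearest to Ncl was Rasa1, a GTPase-activating protein for Ras, at 0.079, with 5997 in Rat1-Omomer and 10027 in Rat1-control cells with serum for 90 min, and 7444 in starved Rat1-Omomer and 7043 in starved Rat1-control cells. Camk2d, a calmodulin-dependent kinase, followed at 0.121 and Ywhaz, a 14-3-3 protein, at 0.130. Nearest to Odc1 was Cyc1, cytochrome c1 of the respiratory chain, at 0.122, with 15310 in Rat1-Omomer and 9917 in Rat1-control cells with serum for 90 min, and 10528 in starved Rat1-Omomer and 4591 in starved Rat1-control cells. Canx, a chaperone of the endoplasmic reticulum, followed at 0.209 and the mitochondrial chaperone Hspa9 at 0.288. These genes had a low starved Rat1-control value and higher values on the other 3 arrays, as Odc1 had.

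Other genes of the nucleolus and of ribosome production were mostly higher with serum in Rat1-control cells. Of 35 genes on a list, 14 were measured, by 23 probe sets. Of the 17 with a fold, 14 were higher and 3 lower at 90 min than at 0 min, with a median log2 fold of 0.49 against -0.07 over all probe sets, and none reached 3-fold. Highest were Ddx21, a nucleolar RNA helicase, 2.72-fold higher with 8614 at 90 min and 3169 at 0 min, and Nop58, a core protein of small nucleolar ribonucleoproteins, 2.58-fold higher with 9863 and 3817. The probe sets of Gnl3, encoding nucleostemin, disagreed: rc_AA892598_at was the lowest of the list, 1.50-fold lower with 2627 at 90 min and 3939 at 0 min, while the brighter rc_AA892598_g_at was higher (log2 0.62), with 7523 at 90 min and 4901 at 0 min.

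In Rat1-Omomer over Rat1-control cells at 90 min the same list had 6 higher and 11 lower probe sets of 17, with a median of -0.42 against 0.18 over all. The 3 that were at least 3-fold lower measure 2 genes, and 8.57% of all probe sets were 3-fold lower in this comparison. Dkc1, the pseudouridine synthase of ribosomal RNA, had 1075 in Rat1-Omomer and 4921 in Rat1-control cells (4.58-fold lower), and 1031 and 4544 by its other probe set (at least 4.34-fold lower). The value 1075 is under its own array's floor of 1228, with which its fold would be a smaller bound. Polr1d, a subunit of RNA polymerases I and III, had 493 in Rat1-Omomer and 6060 in Rat1-control cells (at least 5.78-fold lower). All 3 belong to the 1744 probe sets with IDs starting rc_AA79, rc_AA80, rc_AA85, rc_AA87 or rc_AA89, called here the 5 EST series, a grouping made after the data were seen. Low values were concentrated in these series: 347 of 4048 probe sets were 3-fold lower in all, but 104 of 3156 (3.30%) outside them. The series hold 7 of the 17 probe sets of the list. Outside the series the list had a median of -0.05 over 10 probe sets, none 3-fold lower, against 0.32 over all probe sets there. None of the 7 probe sets of Ncl, Odc1, Amd1, Nme1 and Nme2 is in the series. Gnl3 has no settled direction here either. By rc_AA892598_at it was 2.16-fold higher with 5665 in Rat1-Omomer and 2627 in Rat1-control cells, the highest fold of the list, and by the brighter rc_AA892598_g_at it was lower (log2 -0.69) with 4678 in Rat1-Omomer and 7523 in Rat1-control cells. Mybbp1a, a nucleolar Myb-binding protein, had log2 folds of 0.48 and 0.33 by its probe sets. These are near the median of 0.32 of all probe sets with both values above the floor.

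Of the polyamine list, 10 of 20 genes were measured, and 7 of 11 probe sets had a fold. In Rat1-control cells at 90 min over 0 min, 6 were higher and 1 lower, with a median of 0.42. Azin1, the antizyme inhibitor that releases ornithine decarboxylase from its antizyme, had by the brighter of its probe sets (D89983_at) 2579 in Rat1-Omomer and 5424 in Rat1-control cells with serum for 90 min, and 2153 in starved Rat1-Omomer and 2060 in starved Rat1-control cells. By this probe set it was 2.63-fold higher with serum in Rat1-control cells, and 2.10-fold lower in Rat1-Omomer than in Rat1-control cells at 90 min. The other, rc_AI043631_s_at, had 3423 in Rat1-Omomer and 3310 in Rat1-control cells with serum, and 1372 in starved Rat1-Omomer and 2276 in starved Rat1-control cells. It was thus about as high in both cell lines with serum (log2 0.05), and did not share the difference between them at 90 min. The antizyme genes Oaz1 and Oaz2, whose products bind ornithine decarboxylase, were at 90 min higher in Rat1-Omomer cells by 1.63-fold and 1.53-fold, at intensities of 66957 and 114261 in Rat1-Omomer and 41136 and 74670 in Rat1-control cells. Many bright probe sets were higher too: those with a mean near that of Nme2 had a median log2 fold of 0.38 and an upper quartile of 0.62. The log2 folds of Oaz1 and Oaz2 were 0.70 and 0.61. In Rat1-Omomer over Rat1-control cells at 90 min, 4 probe sets of this list were higher and 3 lower, with a median of 0.05. The 1 probe set that was 3-fold lower at 90 min was Got1, an aspartate aminotransferase and not an enzyme of polyamine synthesis, with 1792 in Rat1-Omomer and 6275 in Rat1-control cells (3.50-fold lower). Of all probe sets, 8.57% were 3-fold lower in this comparison.

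Nucleotide synthesis genes other than Nme1 and Nme2 went both ways. Of 49 genes on the list, 21 were measured, by 26 probe sets. In Rat1-control cells at 90 min over 0 min, 5 of 14 were higher and 9 lower, with a median of -0.14, and the lowest was Ctps2, a CTP synthase, 2.997-fold lower with 1522 at 90 min and 4562 at 0 min. At 90 min 9 of 15 were higher and 6 lower in Rat1-Omomer than in Rat1-control cells, with a median of 0.37 against 0.18 over all. Adk, adenosine kinase, was 2.76-fold higher with 4010 in Rat1-Omomer and 1455 in Rat1-control cells, and the mitochondrial kinase Ak3 2.74-fold higher with 12344 and 4498. Aprt, which salvages adenine, was 2.19-fold lower with 9170 in Rat1-Omomer and 20120 in Rat1-control cells. Uck2, a uridine-cytidine kinase with its probe set in the 5 EST series, was 1.88-fold lower with 1080 and 2028. The value 1080 is also under that array's own floor. In Rat1-Omomer cells at 90 over 0 min, 10 of 18 were higher and 8 lower, with a median of 0.04. On the list 2 were 3-fold lower, where 9.65% of all probe sets were. Ctps2, whose probe set is in the 5 EST series, had 1038 at 90 min and 4549 at 0 min (at least 4.34-fold lower). Prps1, a phosphoribosyl pyrophosphate synthetase outside the series, had 816 at 90 min and 3324 at 0 min (at least 3.17-fold lower). At 0 min 16 of 17 were higher in Rat1-Omomer than in Rat1-control cells, though the median log2 fold was only 0.18 against 0.01 over all and none reached 3-fold. Some were near 0, such as Prps1 (0.05) and Ak3 (0.09), and the highest, Nme6 (0.59), is a bound. The share of all probe sets that were higher was not counted.

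**Figure D4:**
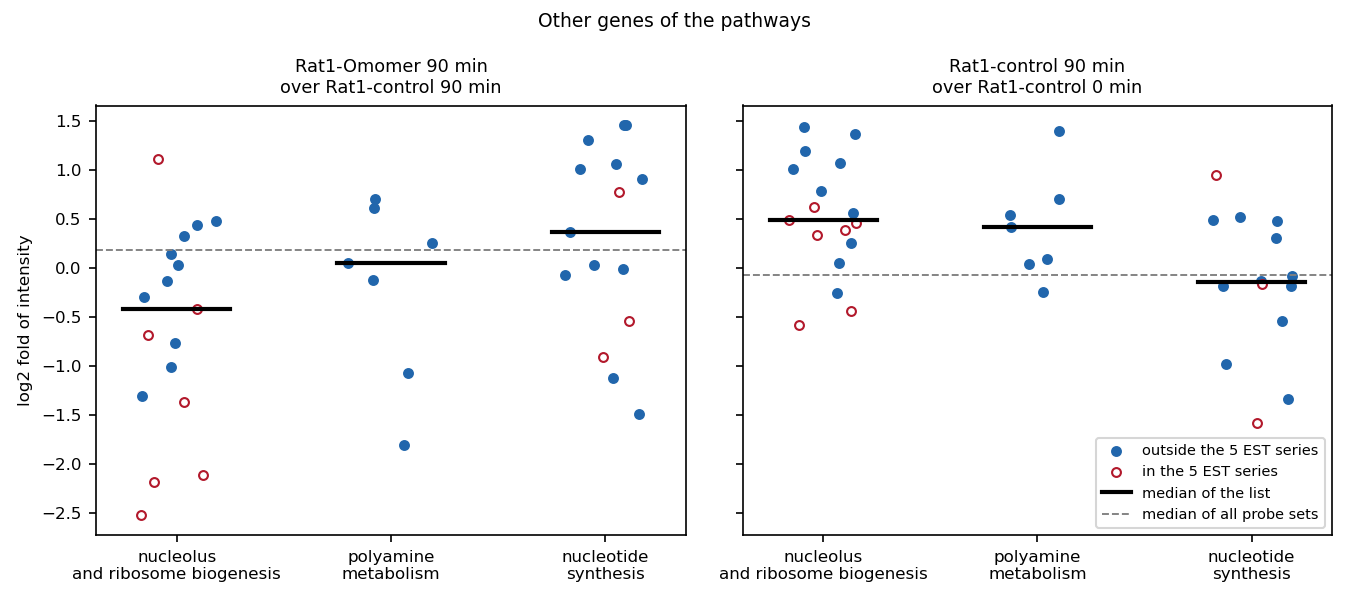
Log2 folds of the other genes of the 3 lists, for Rat1-Omomer over Rat1-control cells at 90 min (left) and for Rat1-control cells at 90 min over 0 min (right); each point is a probe set, bounds included, open points belong to the 5 EST series, black lines are list medians and the dashed line is the median of all probe sets. The nucleolar list has its median at -0.42 on the left and 0.49 on the right.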

How the data were processed

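The deposited values are intensities, MAS 4 average differences that the authors computed with default settings from RG-U34A arrays and scaled to nearly the same mean; negative values were kept. Of 8799 probe sets, 59 manufacturer controls were left out, and of the other 8740 the platform annotation gives 7006 a single symbol, 308 several and 1426 none. The noise SD was the median size of the negative values of the 4 arrays times 1.4826, and the floor 2 times this SD. Folds are ratios of floored intensities; the error of a log2 fold carries this noise SD only. The brightest probe set stands for a gene of the group, with the others beside it; the pathway lists were counted by probe set. From each list of other pathway genes, the 2 highest and 2 lowest probe sets in 2 comparisons could be named; the 3-fold threshold follows the study's methods. The members and lists were chosen with earlier results of these data known; Dkc1 by its second probe set, Polr1d, Prps1 and Tomm20 were named after their values were seen. Floors of 1 and 4 noise SDs, the noise floor of each array, median scaling, quantile normalization, the difference form of the MAS 4 fold and 1 probe set per gene were tried. The fold calls were checked on simulated data, with changes above 3-fold placed in bright probe sets only. Smaller changes and changes in dim probe sets were not covered by it. All simulated arrays were given the same noise, whereas the noise of the real arrays differed. The number of arrays limits the precision. Promoter sequences are from RefSeq (GRCr8), matched by symbol for all 6 genes. Computations used numpy 2.4.6, pandas 2.3.3 and matplotlib 3.10.9 in Python 3.11.15.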

Additional observations from a re-analysis of the deposited data

Results flagged for a closer look

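The folds of Ncl differed in sign between the cell lines and between the times. With serum, the log2 fold was -0.44 in Rat1-Omomer and 0.60 in Rat1-control cells by the brighter probe set, and -1.18 (a bound) in Rat1-Omomer and 0.10 ± 0.52 in Rat1-control cells by the other. Likewise, Rat1-Omomer over Rat1-control cells had a log2 fold of -0.87 at 90 min and 0.17 at 0 min by the brighter probe set, and of -1.02 (a bound) at 90 min and 0.26 ± 0.50 at 0 min by the other. The positive folds of the second probe set are within their noise errors and show no direction. These pairs share the same 4 arrays and are 1 observation. The difference was not tested, since each condition has 1 array.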

How the results depend on the processing

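No paired analysis was possible because each condition has 1 array. The count of 0 probe sets at least 3-fold higher or lower became 1 for Rat1-Omomer at 90 min over Rat1-control at 0 min, with median scaling and with quantile normalization (Odc1), and 1 for Rat1-Omomer over Rat1-control at 90 min with the MAS 4 fold in its difference form (the dim Odc1 probe set). For Rat1-Omomer over Rat1-control at 90 min the median log2 fold of the 7 probe sets, -0.19, was -0.87 with a floor of 1 noise SD and with the difference form, but turned positive with a floor of 4 noise SDs (0.15), the noise floor of each array (0.04) and the brightest probe set of each gene (0.31). Quantile normalization turned Nme2, to -0.10 for Rat1-Omomer at 90 over 0 min and to -0.03 for Rat1-Omomer over Rat1-control at 90 min. With a floor of 4 noise SDs the log2 folds of Amd1 moved to 0.43 for Rat1-control at 90 over 0 min and to -0.43 between the cell lines at 90 min. In all, 65 values for the group and 137 for single genes stayed within 1.5-fold or kept their count, the medians that turned positive among them. Amd1 had no fold left with a floor of 4 noise SDs for Rat1-Omomer at 90 min over either 0 min array. The same held with the noise floor of each array for Rat1-Omomer at 90 over 0 min. These cases are not in the counts. Over all probe sets, the number at least 3-fold lower in Rat1-Omomer than in Rat1-control cells at 90 min was 347, which became 560 with 1 noise SD as the floor and 183 with 4. In Rat1-control cells at 90 over 0 min, 77 were higher and 72 lower, with 113 and 156, and 49 and 32, at these floors. Leaving out the 5 EST series, which was chosen after seeing the data, left 104 lower in Rat1-Omomer than in Rat1-control cells at 90 min.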
